A study of Mus musculus with 8 samples.

Results

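The urokinase system and thrombospondin-1 were followed through 6 genes in MH-S, an alveolar macrophage line of the mouse, exposed to a bacterial stimulus with or without nanoparticles. The 6 genes are Plau, Plaur, Serpinb2, Thbs1, Anxa2 and S100a10. They were taken by symbol from the 17518 genes of the deposited table, and all 6 passed the filter on low counts that left 11911 genes for testing. The cells had been given LPS together with nanoparticles named RCMNs (LPS+RCMNs, n = 3), LPS alone (n = 2), or phosphate-buffered saline (control, n = 3). LPS is lipopolysaccharide, from the outer membrane of Gram-negative bacteria, to which macrophages respond through Toll-like receptors. In LPS+RCMNs the doses were 100 ng/mL of LPS and 1 µg/mL of RCMNs. No dose for LPS alone and no time of exposure is given in the sources used here. The study's title concerns particles that respond to reactive oxygen species, for imaging and treating acute lung injury. RCMNs were not tested without LPS among these 8 libraries, and a line grown in culture is a limited model of alveolar macrophages in the lung. Whether the replicates came from separate dishes is not in the labels, and the p-values therefore cover a spread between samples that may be technical.

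Urokinase, the product of Plau, is a secreted serine protease that cuts plasminogen into plasmin, the protease that dissolves fibrin and degrades matrix. It acts mainly at the cell surface, where the receptor encoded by Plaur holds it, and it is inhibited by serpins, among them plasminogen activator inhibitor 2, the product of Serpinb2. Annexin A2 and its partner S100A10, encoded by Anxa2 and S100a10, form a surface complex that binds plasminogen. Thrombospondin-1, the product of Thbs1, is a secreted matrix protein that binds CD36 and CD47, activates latent TGF-beta and binds plasminogen and urokinase. In the acutely injured lung fibrin builds up in the airspaces, and macrophages are a source of both urokinase and its inhibitors.

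The 6 genes lie on 6 chromosomes, all on the forward strand of GRCm38.p6 (the mm10 build). Plau (gene ID 18792) spans chr14:20836662-20843388, Plaur (18793) spans chr7:24460937-24475970, and Serpinb2 (18788) spans chr1:107500892-107525600. Thbs1 (21825) spans chr2:118111876-118127133, Anxa2 (12306) spans chr9:69453683-69491792, and S100a10 (20194) spans chr3:93555117-93564645. All 6 are protein-coding. In the same gene table no other gene overlaps them, except that the microRNA gene Mir3109 lies within Anxa2.

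RefSeq promoter windows (GRCm38.p6) were at hand for 3 of the 6 genes, Plaur, Serpinb2 and Anxa2. They show which letters lie before a transcript start of these genes. Before the correction for length given below, all 3 were higher in LPS than in control. Plau and Thbs1, which were lower in LPS, have no window here, so the windows hold no contrast of direction. Each run gives the 250 bases before the start of a RefSeq transcript, 5′ to 3′ on the forward strand. That start is the start of the gene span for Anxa2, but lies 1546 bases inside the span of Plaur and 10531 bases inside that of Serpinb2. Capitals mark matches to the AP-1 motif TGANTCA and to the TATA box TATAAA.
Plaur, chr7:24462233-24462482: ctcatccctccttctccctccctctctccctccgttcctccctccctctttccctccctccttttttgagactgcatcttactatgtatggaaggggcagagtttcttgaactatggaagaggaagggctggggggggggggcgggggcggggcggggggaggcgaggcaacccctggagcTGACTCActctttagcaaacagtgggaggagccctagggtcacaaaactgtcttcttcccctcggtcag
Serpinb2, chr1:107511173-107511422: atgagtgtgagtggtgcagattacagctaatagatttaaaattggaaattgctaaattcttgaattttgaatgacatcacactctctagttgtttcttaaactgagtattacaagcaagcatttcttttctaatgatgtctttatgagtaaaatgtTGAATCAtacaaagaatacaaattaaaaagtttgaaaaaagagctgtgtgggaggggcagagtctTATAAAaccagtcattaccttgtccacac
Anxa2, chr9:69453433-69453682: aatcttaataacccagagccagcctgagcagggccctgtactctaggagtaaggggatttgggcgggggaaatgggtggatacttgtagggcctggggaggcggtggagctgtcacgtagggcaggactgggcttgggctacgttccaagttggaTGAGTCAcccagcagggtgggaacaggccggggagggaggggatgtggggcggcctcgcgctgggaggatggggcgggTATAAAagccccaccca
All 3 windows held 1 AP-1 match, and 6.75% of the 32851 promoter windows of the same length held at least 1. The match was TGACTCA in Plaur, at positions -69 to -63 from that transcript start, TGAATCA in Serpinb2, at -94 to -88, and TGAGTCA in Anxa2, at -95 to -89. Serpinb2 and Anxa2 also held TATAAA, found in 12.4% of windows, at -29 to -24 and at -17 to -12. The GC box GGGCGG, found in 32.7% of windows, had 3 matches in Plaur, of which 2 share a base, 3 in Anxa2 and none in Serpinb2. The ETS core GAGGAA, found in 23.3% of windows, matched Plaur alone, with 2 matches. The cyclic AMP response element TGACGTCA and the NF-kappaB motif, found in 1.55% and 3.9% of windows, had no match in the 3 windows. Both strands were searched, none of the AP-1 and TATA matches overlapped another motif, and a match is a description of letters, not of a bound site.

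Each library held between 18.6 and 21.2 M (mega) counts, and 3 counts correspond to 0.130 to 0.182 CPM, counts per M after TMM scaling. In control replicate 1 and LPS+RCMNs replicate 2, counts differed from their group mates by a chi-square per degree of freedom of 37.54 to 49.98, against 1.96 to 2.908 within the remaining pairs of those groups and 13.36 between the LPS libraries. Their deviations from their group means also correlated across genes (r = 0.423), more than those of any other pair of libraries from different groups. These 2 libraries are named below for many results, but not for every value in which they differ from their group mates. In LPS libraries levels followed gene length, with a rank correlation of -0.59 across 11911 genes between the LPS versus control fold change and length, against -0.09 for LPS+RCMNs versus control. Of 12 macrophage markers 9 reached 1 CPM, Lyz2, Csf1r, Adgre1 and Cd68 among them. Siglecf, Pparg and Chil3, which mark alveolar macrophages, did not, with highest levels of 0.186, 0.506 and 0.242 CPM. Erythroid markers summed to 0.658 to 34.1 CPM in LPS+RCMNs, 4359 to 5623 CPM in LPS and 0.824 to 20.7 CPM in control. Neutrophil markers summed to 0.245 to 0.709, 5.15 to 5.33 and 0.0931 to 0.139 CPM in the same order. Lymphocyte and fibroblast markers were also highest in LPS, at up to 1.15 and 0.545 CPM, while endothelial markers were lowest there, at 4.3 to 5.15 CPM. The part of these transcripts in the results below, which set the LPS libraries apart, was not tested.

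Plau, the activator, had 1546, 554 and 1485 CPM in LPS+RCMNs libraries 1 to 3, 62.8 and 81.8 CPM in the LPS libraries, and 517, 1096 and 971 CPM in control libraries 1 to 3. Both LPS libraries thus lay far below every other library, while LPS+RCMNs and control overlapped. In LPS+RCMNs replicate 2 and control replicate 1 Plau was lower than in the other libraries of their groups, and these 2 read nearly alike. LPS versus control gave a log2 fold change of -3.57 ± 0.50 (SE), and LPS+RCMNs versus LPS gave 4.05 ± 0.51, the 53rd lowest and the 22nd highest of 11911 values. Plau and Thbs1 were chosen by these fold changes, LPS versus control for Plau and LPS+RCMNs versus LPS for both, with the results known, and the other genes to go with them, so the values of the 6 in these comparisons are a description with no test.

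Plaur, the receptor, ran the other way. Its level was 270, 168 and 245 CPM in LPS+RCMNs, 527 and 448 CPM in LPS, and 75.9, 199 and 181 CPM in control. The LPS libraries were highest, and LPS+RCMNs overlapped control because LPS+RCMNs replicate 2, at 168 CPM, lay below control replicates 2 and 3. LPS versus control gave a log2 fold change of 1.68 ± 0.35 (SE), and LPS+RCMNs versus LPS gave -1.10 ± 0.35. With the length trend removed these values were 1.13 ± 0.34 and -0.59 ± 0.34, and with a surface on length and level removed 0.80 ± 0.35 and -0.28 ± 0.35.

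Serpinb2, the inhibitor, had the widest span upward. It stood at 10.9, 3.34 and 10.2 CPM in LPS+RCMNs, at 48.9 and 37.1 CPM in LPS, and at 0.52, 2.28 and 2.14 CPM in control. The 3 groups were fully separate, with LPS highest, LPS+RCMNs between and control lowest. Control levels rest on 12, 49 and 46 counts, so the size of the LPS fold is less certain than for the other genes. On the log2 scale Serpinb2 differed by 4.71 ± 0.56 (SE) between LPS and control, by -2.40 ± 0.49 between LPS+RCMNs and LPS, and removal of the length trend left 4.41 ± 0.55 and -2.12 ± 0.48.

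Thbs1, thrombospondin-1, had 79.8, 53.4 and 85.8 CPM in LPS+RCMNs, 4.36 and 5.45 CPM in LPS, and 40.1, 25.5 and 27.0 CPM in control. Its groups too were fully separate, but in another order, with LPS+RCMNs highest, control between and LPS lowest. On the log2 scale Thbs1 differed by -2.65 ± 0.29 (SE) between LPS and control and by 3.89 ± 0.30 between LPS+RCMNs and LPS, the last being the 28th highest of 11911 values. Thbs1 has an implied length of 5795 bases, the longest of the 6, and with the length trend removed these values were -1.94 ± 0.27 and 3.23 ± 0.28. The LPS level rests on 72 and 90 counts. Platelets store thrombospondin-1, and 7 platelet and megakaryocyte markers in the table summed to 53.9 to 57.4 CPM in LPS+RCMNs, 217 to 227 CPM in LPS and 78.9 to 91.0 CPM in control. Nearly all of that was Pf4; 4 of the 7 reached 1 CPM, and Itga2b and Gp9 did not exceed 0.385 and 0.242 CPM. Their part in the Thbs1 levels was not tested.

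**Figure D1:**
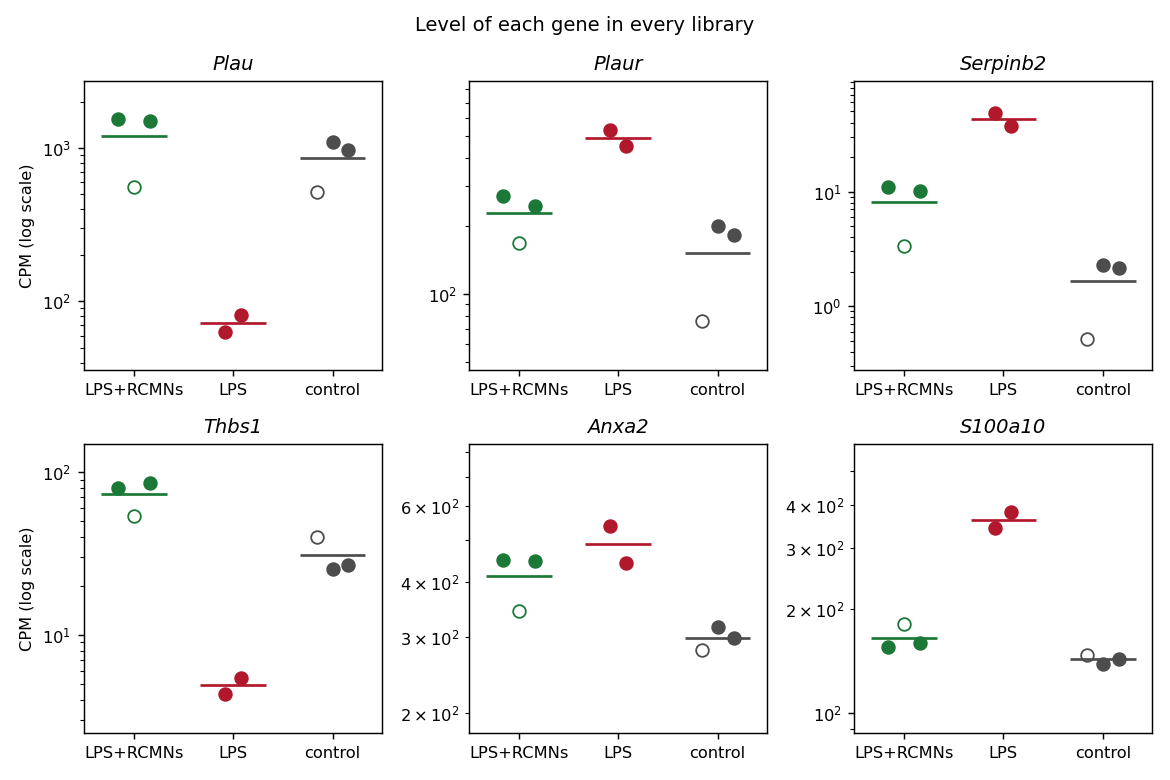
CPM of each of the 6 genes in every library on a log axis, by group from left to right LPS+RCMNs, LPS and control, with a line at the group mean; open circles are LPS+RCMNs replicate 2 and control replicate 1. Plau lies at 62.8 and 81.8 CPM in LPS and at 517 CPM or above elsewhere, while Serpinb2 lies at 37.1 and 48.9 CPM in LPS and at 10.9 CPM or below elsewhere.

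Anxa2 and S100a10, which encode the plasminogen-binding complex, differed less between LPS and the other groups than Plau, Serpinb2 and Thbs1 did. Anxa2 had 451, 343 and 448 CPM in LPS+RCMNs, 538 and 444 CPM in LPS, and 279, 316 and 297 CPM in control. The LPS+RCMNs and LPS libraries overlapped, and both groups lay above control. For Anxa2 the log2 difference was 0.72 ± 0.14 (SE) between LPS and control and -0.25 ± 0.14 between LPS+RCMNs and LPS. S100a10 had 155, 180 and 159 CPM in LPS+RCMNs, 342 and 380 CPM in LPS, and 147, 138 and 143 CPM in control. It was highest in LPS, with control and LPS+RCMNs close together and not overlapping. Its log2 difference was 1.34 ± 0.10 between LPS and control and -1.13 ± 0.10 between LPS+RCMNs and LPS. S100a10 is the shortest of the 6, at an implied 603 bases, and Anxa2 has 1328 bases. With the length trend removed, Anxa2 was at 0.07 ± 0.14 and S100a10 at -0.09 ± 0.10 for LPS versus control, so neither kept its difference there. For LPS+RCMNs versus LPS the same removal gave 0.36 ± 0.15 for Anxa2 and 0.17 ± 0.10 for S100a10, opposite in sign to the values without it.

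Between genes, levels were compared per length, as the authors' FPKM (fragments per kb of gene and M reads). In LPS+RCMNs the mean FPKM was 551 for Plau, 329 for Anxa2, 288 for S100a10, 164 for Plaur, 13.3 for Thbs1 and 4.47 for Serpinb2 (n = 3). In LPS the order was S100a10 at 474, Anxa2 at 292, Plaur at 263, Plau at 25, Serpinb2 at 17.6 and Thbs1 at 0.670 (n = 2). In control it was Plau at 415, S100a10 at 263, Anxa2 at 248, Plaur at 114, Thbs1 at 5.92 and Serpinb2 at 0.937 (n = 3). Plau ranked 123rd of the 17518 genes by mean FPKM in LPS+RCMNs, 2989th in LPS and 156th in control. Some of these orders changed from library to library. S100a10 and Anxa2 changed order in LPS+RCMNs and in control. Plau fell below S100a10 in LPS+RCMNs replicate 2 and control replicate 1, and below Anxa2 in LPS+RCMNs replicate 2. In control Plau exceeded Anxa2 in all 3 libraries, narrowly in replicate 1 (256 against 238). Anxa2 exceeded Plaur in both LPS libraries (316 against 280 and 268 against 246). FPKM is not TMM-scaled, and its sum over genes was 471416 to 484416 in LPS+RCMNs, 663131 and 681260 in LPS and 470927 to 478558 in control.

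Ratios within a library do not depend on library scaling, but they do carry the length trend where the genes differ in length. The FPKM ratio of Plau to Plaur, activator to receptor, was 3.66, 2.1 and 3.88 in LPS+RCMNs, 0.076 and 0.117 in LPS, and 4.36, 3.52 and 3.43 in control. Activator transcripts thus exceeded receptor transcripts in all 6 libraries of LPS+RCMNs and control and were fewer in both LPS libraries. The ratio of Plau to Serpinb2, activator to inhibitor, was 120, 139 and 122 in LPS+RCMNs, 1.08 and 1.86 in LPS, and 827, 406 and 385 in control. It did not overlap between any of the groups, and the LPS+RCMNs libraries lay between. Anxa2 to S100a10 was 1.32, 0.865 and 1.28 in LPS+RCMNs, 0.715 and 0.531 in LPS, and 0.859, 1.04 and 0.94 in control. This ratio was lowest in LPS, and LPS+RCMNs overlapped control. The genes differ in length by more than any other pair set in ratio here, and with the length trend removed the LPS versus control values of 0.07 for Anxa2 and -0.09 for S100a10 lie close together.

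**Figure D2:**
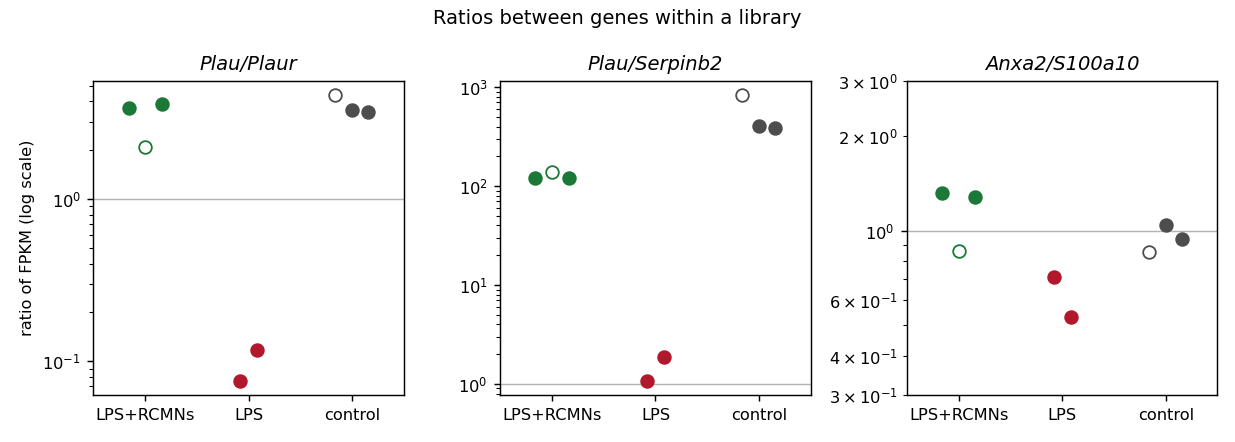
FPKM ratios of Plau to Plaur, Plau to Serpinb2 and Anxa2 to S100a10 in each library on log axes, by group from left to right LPS+RCMNs, LPS and control; open circles are LPS+RCMNs replicate 2 and control replicate 1, and the grey line marks equal FPKM. Plau to Serpinb2 falls into 3 separate levels, 120 to 139 in LPS+RCMNs, 1.08 to 1.86 in LPS and 385 to 827 in control.

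The CPM of LPS and control did not overlap in any of the 6 genes, and this held for 76.1% of the 11911 tested genes. By edgeR's quasi-likelihood test at an adjusted p of 0.05, 63.4% of tested genes were called in that comparison. Between LPS+RCMNs and LPS 5 of the 6 did not overlap, Anxa2 being the exception, against 74.9% of tested genes, of which 59.3% were called, 29.8% higher and 29.5% lower. The median log2 fold change of the 6 was 1.03 between LPS and control and -0.67 between LPS+RCMNs and LPS, against -0.04 and 0.03 over the tested genes. Both comparisons were known when the 6 genes were chosen, and both use the same 2 LPS libraries, so nothing is read from these counts.

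The LPS+RCMNs versus control comparison asks how far cells given LPS and nanoparticles stood from untreated cells. Here the 6 genes were all on the higher side in LPS+RCMNs, and Serpinb2 and Thbs1 passed the test, 2 of 6, where 4.33% of tested genes were called higher and 7.56% in either direction. Serpinb2 averaged 8.16 ± 4.18 CPM in LPS+RCMNs and 1.65 ± 0.978 CPM in control (SD, n = 3 each), a log2 fold change of 2.32 ± 0.53 (SE; edgeR's quasi-likelihood test, Benjamini-Hochberg adjusted p = 0.0324), higher in 3 of 3 LPS+RCMNs libraries. Thbs1 averaged 73.0 ± 17.3 CPM in LPS+RCMNs and 30.9 ± 8 CPM in control (SD, n = 3 each), 1.24 ± 0.22 on the log2 scale (edgeR, adjusted p = 0.0108), or 2.36-fold, again with no overlap. Not called by this test were Plau at 0.47 ± 0.38 (adjusted p = 0.508), Plaur at 0.59 ± 0.32 (0.313), Anxa2 at 0.48 ± 0.13 (0.0535) and S100a10 at 0.20 ± 0.09 (0.211). The groups did not overlap for Serpinb2, Thbs1, Anxa2 and S100a10, 4 of the 6, as in 29.8% of tested genes. This comparison is the sum of the other pair on the log scale and reuses the LPS+RCMNs libraries by which Plau and Thbs1 were chosen. It is thus not independent of that choice, and the adjusted p of Thbs1 may be too small. No excess over all genes is read from the count of the 6 called, here or in the fits below. Removal of the length trend left values of 0.46 for Plau, 0.54 for Plaur, 2.29 for Serpinb2, 1.29 for Thbs1, 0.42 for Anxa2 and 0.08 for S100a10.

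Which libraries enter decided several of these calls. The Serpinb2 call was lost without any 1 of the libraries other than LPS+RCMNs replicate 2, including the LPS libraries, which lend the fit its spread, with an edgeR adjusted p of 0.0523, 0.0601 and 0.071 without control replicates 1, 2 and 3, 0.0674 and 0.0665 without LPS replicates 1 and 2, and 0.114 and 0.115 without LPS+RCMNs replicates 1 and 3. Over all fits with 1 library left out, that without LPS+RCMNs replicate 2 included, the Serpinb2 log2 fold change ran from 1.88 to 2.71. The Thbs1 call was lost without LPS+RCMNs replicate 3, at 1.11 (edgeR adjusted p = 0.0511). Anxa2 was called without LPS+RCMNs replicate 2, at 0.62 (edgeR adjusted p = 0.00846). Without both control replicate 1 and LPS+RCMNs replicate 2, edgeR called 5 of the 6 higher, while 14.7% of tested genes were called higher and 25.3% in either direction. The values were then 0.58 for Plau (adjusted p = 0.00215), 0.47 for Plaur (0.00405), 2.28 for Serpinb2 (1.82e-05), 1.68 for Thbs1 (4.87e-07) and 0.58 for Anxa2 (9.46e-04), and S100a10 at 0.18 (0.0752) was not called. These 2 libraries were left out after they were seen to stand apart, which narrows the spread that the test uses. The SE of Thbs1, for example, was 0.08 in place of 0.22. Adjusted p-values and calls without both libraries, here and below, are therefore likely too favourable.

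The libraries that stand apart were also set against each other. LPS+RCMNs replicate 2 and control replicate 1 differed by a log2 ratio of 0.10 for Plau, 1.15 for Plaur, 2.68 for Serpinb2, 0.41 for Thbs1, 0.30 for Anxa2 and 0.29 for S100a10. Between the means of LPS+RCMNs replicates 1 and 3 and control replicates 2 and 3 the log2 ratio was 0.55 for Plau, 0.44 for Plaur, 2.26 for Serpinb2, 1.66 for Thbs1, 0.55 for Anxa2 and 0.16 for S100a10. All of these ratios were above 0. For Thbs1 the size depended on the libraries, since Thbs1 was lower in LPS+RCMNs replicate 2 than in its group mates and higher in control replicate 1 than in its own.

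**Figure D3:**
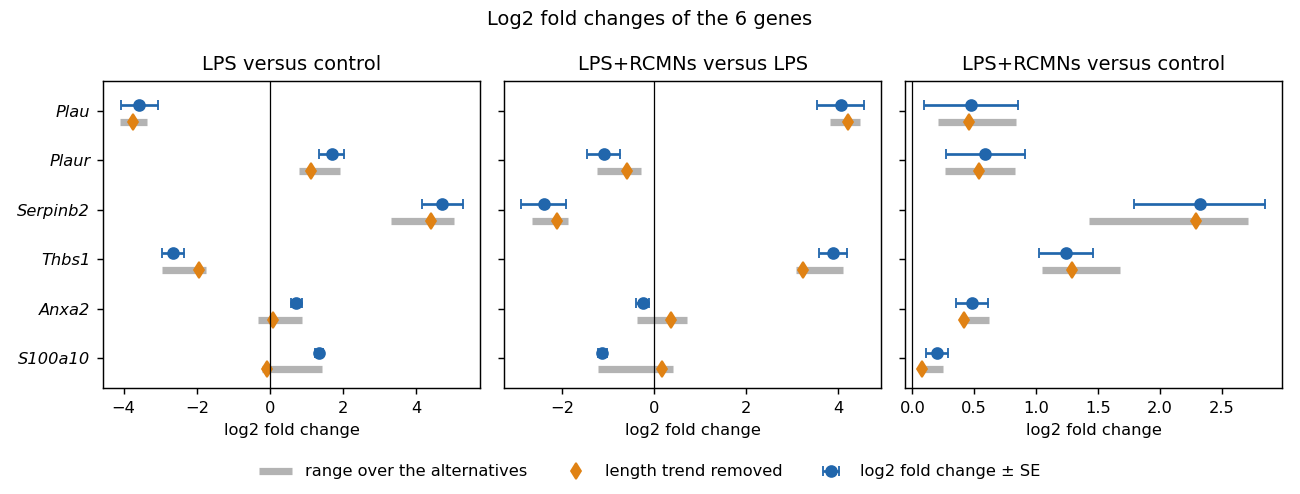
Log2 fold change (blue, bars ± SE) of the 6 genes in the 3 comparisons, with the range over the 19 alternatives in grey and the value with the length trend removed as orange diamonds; each panel has its own axis. Plau, Plaur, Serpinb2 and Thbs1 keep their sign in each panel, while the ranges of Anxa2 and S100a10 cross 0 in the LPS versus control and LPS+RCMNs versus LPS panels.

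Around these 6 genes, 114 further genes of plasminogen activation, urokinase receptor partners, thrombospondin-1 receptors, coagulation, and the annexin and S100 families were listed, of which 108 were in the table and 63 were tested. In LPS versus control 27 of the 63 rose and 17 fell, 69.8%, where 63.4% of all tested genes were called, 31.4% higher and 32.1% lower. In LPS+RCMNs versus LPS 21 rose and 23 fell, 69.8% against 59.3% of all genes. In LPS+RCMNs versus control 10 rose and 6 fell, 25.4% against 7.56% of all genes. That last count was 8 without LPS+RCMNs replicate 3 and 30 without both libraries that stand apart. The medians were 0.27, 0.17 and 0.11 in the 3 comparisons. The lists were chosen with earlier results of these data known, so the shares here and below are a description only. Plat, the other plasminogen activator, was not tested, and its highest level in any library was 0.424 CPM.

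Among the 7 tested plasminogen activation genes, 3 rose and 2 fell in LPS versus control (71.4%, against 63.4% of all tested genes), 2 rose and 3 fell in LPS+RCMNs versus LPS (71.4%, against 59.3%), and none was called in LPS+RCMNs versus control (against 7.56%). In that last comparison edgeR gave 2 of the 7 an unadjusted p under 0.05, DESeq2 called 1, Serpinb9, and limma called none. Without LPS+RCMNs replicate 2 the count was 2, and without both libraries that stand apart it was 4; Serpinb9, an inhibitor of granzyme B, is named after its values were seen.

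Of 12 tested partners and clearance receptors of the urokinase receptor, 4 rose and 5 fell in LPS versus control (75%, against 63.4% of all tested genes). Between LPS+RCMNs and LPS 9 rose and 1 fell (83.3%, against 59.3%), and 29.8% of all genes were called higher. Against control 6 rose and 1 fell in LPS+RCMNs (58.3%, against 7.56%), and 4.33% of all genes were called higher. As this list was chosen with earlier results known, no excess over all genes is read from these shares. Lrp1, the endocytic receptor that clears urokinase bound to inhibitor, averaged 839 ± 174 CPM in LPS+RCMNs (SD, n = 3), 178 ± 28.8 CPM in LPS (SD, n = 2) and 765 ± 201 CPM in control (SD, n = 3). It fell in LPS versus control (-2.11 ± 0.26) and rose in LPS+RCMNs versus LPS (2.24 ± 0.27). With the length trend removed the Lrp1 values were -1.22 and 1.4, for a gene of 14843 bases. Itgam, the integrin subunit of Mac-1, a partner of the urokinase receptor on leukocytes, fell in LPS versus control (-0.99 ± 0.13) and rose in LPS+RCMNs versus LPS (1.67 ± 0.13) and versus control (0.68 ± 0.11, edgeR adjusted p = 0.00798). With the length trend removed Itgam was at -0.43 in LPS versus control and at 1.14 in LPS+RCMNs versus LPS. Itgav, the alpha subunit of the vitronectin receptor, moved likewise with LPS (-2.04 ± 0.18) and with RCMNs against LPS (2.04 ± 0.18), or -1.23 and 1.3 with the length trend removed. Il6st, the shared signalling receptor of the interleukin-6 family, fell with LPS (-1.90 ± 0.11) and rose in LPS+RCMNs versus LPS (1.46 ± 0.11), and was lower in LPS+RCMNs than in control (-0.44 ± 0.09, adjusted p = 0.024). With the length trend removed the first values of Il6st were -1.22 and 0.84. The call against control was lost without control replicate 2 or 3, at -0.47 and -0.43, without LPS+RCMNs replicate 1 or 3, at -0.49 and -0.46, and with only the compared groups fitted, at -0.42 (adjusted p = 0.056). Fpr1, a receptor for formylated peptides, averaged 9.28 ± 4.57 CPM in LPS+RCMNs and 0.231 ± 0.169 CPM in control (SD, n = 3 each) and rose by 5.31 ± 0.60 on the log2 scale (edgeR adjusted p = 0.00151). The control libraries read 0.0433, 0.279 and 0.372 CPM, the first under the level from 3 counts, so the size of this rise is uncertain. In LPS Fpr1 averaged 2.45 ± 0.472 CPM (SD, n = 2). It was higher in LPS than in control too (3.39 ± 0.69, or 2.70 with the length trend removed).

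Among the 12 tested thrombospondin-1 receptors and related genes, 6 rose and 2 fell in LPS versus control (66.7%, against 63.4% of all tested genes), 3 rose and 4 fell in LPS+RCMNs versus LPS (58.3%, against 59.3%), and 2 rose in LPS+RCMNs versus control (16.7%, against 7.56%). The first pair of shares lies near that of all genes. Cd36, a scavenger receptor that binds thrombospondin-1, averaged 666 ± 113 CPM in LPS+RCMNs (SD, n = 3), 301 ± 23.5 CPM in LPS (SD, n = 2) and 391 ± 184 CPM in control (SD, n = 3). It was called in LPS+RCMNs versus LPS (1.14 ± 0.38, edgeR adjusted p = 0.0266), a call lost without LPS replicate 1 (1.23), LPS replicate 2 (1.07), LPS+RCMNs replicate 1 (1.05) or LPS+RCMNs replicate 3 (1.09). Against control Cd36 was at -0.38 ± 0.37 in LPS and 0.77 ± 0.33 in LPS+RCMNs, neither called. Without control replicate 1 the LPS value was -0.72 and was called (adjusted p = 0.0032). Without both libraries that stand apart both were called, the LPS+RCMNs value at 0.58 (adjusted p = 1.97e-04) and the LPS value at -0.67 (adjusted p = 8.28e-06). Cd47, the other receptor, rose both in LPS versus control (0.91 ± 0.19, adjusted p = 0.00235) and in LPS+RCMNs versus control (0.98 ± 0.17, adjusted p = 0.0109), the second call being lost without LPS+RCMNs replicate 3 (0.94). Between LPS+RCMNs and LPS it was at 0.07 ± 0.19, not called, and without both libraries that stand apart at 0.23, called (adjusted p = 0.0265). Tgfb1, whose product thrombospondin-1 can activate, averaged 177 ± 14.8 CPM in LPS+RCMNs (SD, n = 3), 232 ± 10.8 CPM in LPS (SD, n = 2) and 161 ± 19.3 CPM in control (SD, n = 3). It rose by 0.53 ± 0.12 in LPS versus control and had a value of -0.39 ± 0.12 in LPS+RCMNs versus LPS. The Tgfb1 call in LPS versus control was lost with the length trend removed (0.30), and with the length and level surface removed or by limma with either pseudocount (0.05 in each). In LPS+RCMNs versus LPS the Tgfb1 call was lost with the length trend removed (-0.18), with the surface removed (0.01), by limma with either pseudocount (0.02), and without LPS replicate 1 (-0.34), LPS replicate 2 (-0.44), LPS+RCMNs replicate 1 (-0.36) or LPS+RCMNs replicate 3 (-0.36). Sdc4, a heparan sulphate proteoglycan of the cell surface, rose with LPS (1.13 ± 0.11) and was lower in LPS+RCMNs than in LPS (-1.06 ± 0.11).

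Of 14 tested coagulation genes, 2 rose and 6 fell in LPS versus control (57.1%, against 63.4% of all tested genes), 5 rose and 3 fell in LPS+RCMNs versus LPS (57.1%, against 59.3%), and 1 rose and 3 fell in LPS+RCMNs versus control (28.6%, against 7.56%). Procr, the receptor of protein C, averaged 46.2 ± 11.8 CPM in LPS+RCMNs (SD, n = 3), 127 ± 19.5 CPM in LPS (SD, n = 2) and 10.9 ± 1.22 CPM in control (SD, n = 3). It rose in LPS versus control (3.54 ± 0.21) and in LPS+RCMNs versus control (2.08 ± 0.20, edgeR adjusted p = 5.80e-04), the same order of groups as Serpinb2. F3, tissue factor, read 0.0491, 0.0506 and 0.0481 CPM in LPS+RCMNs, under the level from 3 counts in each of these libraries, 0.727 and 1.39 CPM in LPS and 0.433, 0.745 and 0.697 CPM in control.

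Of 18 tested annexin, S100 and annexin A2 partner genes, 12 rose and 2 fell in LPS versus control (77.8%, against 63.4% of all tested genes, 31.4% higher and 32.1% lower). Between LPS+RCMNs and LPS 2 rose and 12 fell (77.8%, against 59.3%, 29.8% higher and 29.5% lower), and in LPS+RCMNs versus control 1 rose and 2 fell (16.7%, against 7.56%). These directions depend on the length trend: of the 14 called in each of the first comparisons, 5 changed sign with it removed, all of them genes of short S100 proteins. Besides S100a4 they were S100a1, S100a6, S100a11 and S100a13, named after their values were seen. Their LPS versus control values were 0.45, 0.90, 0.56 and 1.16, and with the trend removed -1.03, -0.42, -1.13 and -0.08. Anxa3 and Anxa5, at 0.63 and 0.75, were then at 0.14 and 0.33. S100a4, a calcium-binding protein of the same family as S100a10, had a log2 fold change of 1.03 ± 0.10 between LPS and control and -1.39 ± 0.10 between LPS+RCMNs and LPS. S100a4 is implied to be 450 bases long, and with the length trend removed these were -0.66 and 0.15, so the direction reversed with the trend removed. Against control S100a4 was at -0.36 ± 0.09 in LPS+RCMNs (adjusted p = 0.0384), a call lost without control replicate 2 or 3 (-0.36 and -0.34), without LPS+RCMNs replicate 1, 2 or 3 (-0.34, -0.31 and -0.41), with no filter (-0.34), and with only the compared groups fitted (-0.35). Ahnak, a very large scaffold protein that binds the annexin A2 and S100A10 complex, fell in LPS versus control (-3.28 ± 0.28, or -2.39 with the length trend removed) and is implied to be 13184 bases long. Tlr2, a receptor of bacterial lipoproteins, was lower in LPS+RCMNs than in LPS (-1.56 ± 0.10) and than in control (-0.79 ± 0.09, edgeR adjusted p = 0.00171).

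**Figure D4:**
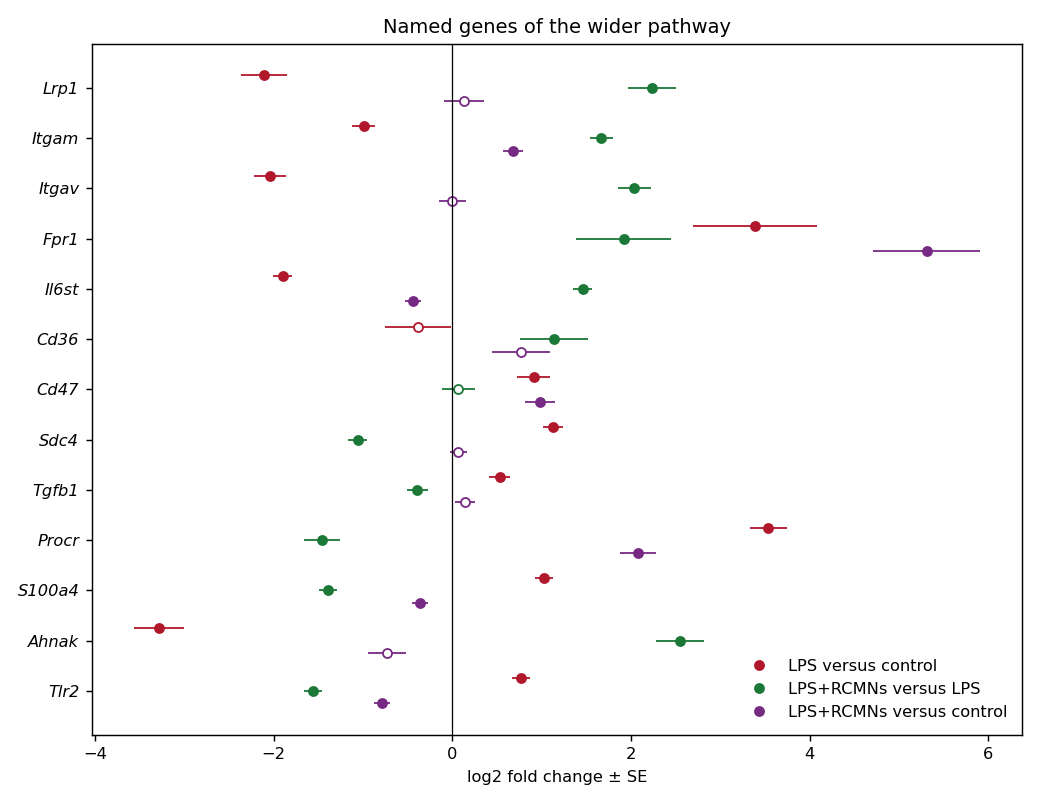
Log2 fold change ± SE of 13 named pathway genes, with the 3 comparisons in red, green and purple, where filled points have an adjusted p under 0.05 and open points do not. Lrp1, Itgav and Il6st lie below 0 in LPS versus control and above 0 in LPS+RCMNs versus LPS, while Procr lies above 0 in both comparisons with control.

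Genes whose pattern over the 8 libraries was most like that of Plau or Thbs1 were sought by Pearson's r of log2 CPM among the 7960 genes whose FPKM averaged 5 or more. The 5 nearest to Plau were Fndc3b (r = 0.999), Fignl1 (0.999), Atrn (0.997), Tbc1d23 (0.997) and Syne1 (0.996). The 5 nearest to Thbs1 were Tmem19 (0.998), Soat1 (0.997), Rab8b (0.996), Gpcpd1 (0.989) and Dtx4 (0.988). Their spans were smaller than those of the genes they follow: Fndc3b, for example, had 108, 78.1 and 102 CPM in LPS+RCMNs, 39.7 and 43.6 CPM in LPS, and 77.3, 97.6 and 91.6 CPM in control. The 8 points share 3 treatments and the depth and length trends of their libraries, so these values are a description only.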

How the data were processed

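RNA-seq of 8 MH-S libraries was analysed from the deposited gene table. RNA was extracted with TRIzol and selected with oligo(dT), per the labels' protocols, and the submitters' processing notes name mm10 as build. Aligner, counter and annotation: not given in the sources used here. As deposited by the authors, values are estimated counts per gene, of which 77.8% of values above 0 are not whole (tolerance 0.001), and FPKM, per the file headers; the FPKM were used as deposited. The table holds 4 per-sample columns of a code that no sample here carries, and these were not used.

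Counts were rounded and tested with edgeR 4.0.16 in R 4.3.3 (filterByExpr, TMM, quasi-likelihood fit over all 8 libraries in 3 groups, Benjamini-Hochberg over 11911 genes, call at an adjusted p of 0.05, no fold minimum). Common biological variation was 14.5%. SE is the log2 fold change divided by the root of F. Gene length is the length implied by count and FPKM. The length trend is a loess (span 0.4) on log2 length, fitted in each library to log2 CPM minus the gene's mean over the 8 libraries. It was removed as an offset in a new fit. Alternatives were DESeq2 1.42.0, limma 3.58.1 on log2(FPKM + 1) and log2(FPKM + 0.1), other scalings and filters, a replicate block, and libraries left out. The fit was tested on simulated data.

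The 6 genes and the gene lists were chosen with earlier results of these data known. LPS versus control and LPS+RCMNs versus LPS were used in that choice, so no p is printed for the 6 genes there. Of the listed pathway genes, the text names per comparison the 3 called genes of smallest p in each direction with a mean FPKM of at least 5 in a group compared, and always Plat, Lrp1, Itgam, Cd36, Cd47, Tgfb1 and F3; 1 further gene of this rule is not reported here. The likeness search used log2(CPM + 0.5). Floors of 3 counts cover counting error only. Promoter sequences are from RefSeq (GRCm38.p6); Serpinb2 had more than 1 window, and the one farthest upstream was used.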

Additional observations from a re-analysis of the deposited data

How the results depend on the processing

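Over 19 alternatives Plau, Plaur, Serpinb2 and Thbs1 kept their direction in each comparison. The size for Plaur varied, from 0.80 to 1.92 in LPS versus control and from -1.24 to -0.28 in LPS+RCMNs versus LPS. In LPS versus control, limma on log2(FPKM + 1) gave 3.30 for Serpinb2, -2.03 for Thbs1, 0.23 for Anxa2 and 0.84 for S100a10, and with a pseudocount of 0.1 it gave 0.23 for Anxa2 and 0.85 for S100a10. In the same comparison, removal of the length trend gave 1.13 for Plaur, -1.94 for Thbs1, 0.07 for Anxa2, -0.09 for S100a10 and -0.66 for S100a4. Removal of a surface on length and level gave 0.80 for Plaur, -1.74 for Thbs1, -0.32 for Anxa2, -0.21 for S100a10 and -0.67 for S100a4. In LPS+RCMNs versus LPS, limma gave 3.07 for Thbs1, 0.16 for Anxa2, -0.71 for S100a10 and 0.02 for Tgfb1 with a pseudocount of 1, and 0.17 for Anxa2, -0.72 for S100a10 and 0.02 for Tgfb1 with 0.1. There the length removal gave 3.23 for Thbs1, 0.36 for Anxa2, 0.17 for S100a10 and 0.15 for S100a4. The surface gave -0.28 for Plaur, 3.08 for Thbs1, 0.72 for Anxa2, 0.40 for S100a10, 0.36 for S100a4, 0.01 for Tgfb1 and 4605 called genes in place of 7063. S100a10 was at -1.23 without both control replicate 1 and LPS+RCMNs replicate 2, and at -1.23 to -1.05 with single libraries left out. The cause of these shifts was not tested.

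In LPS+RCMNs versus control, with single libraries left out, the log2 fold change was 1.88 to 2.71 for Serpinb2, 1.11 to 1.48 for Thbs1 and 0.41 to 0.62 for Anxa2, the called pathway genes numbered 8 to 20 and all called genes 309 to 1370, against 901. Without both libraries named above, Plau was at 0.58, Plaur at 0.47 and Anxa2 at 0.58, all called, with 30 pathway genes and 3013 genes called. Leaving out the libraries seen to stand apart narrows the spread, so these calls are likely too many. DESeq2 called Anxa2 (0.48) and 1379 genes. Serpinb2 was not called by limma with a pseudocount of 0.1 (2.16, adjusted p = 0.0531) or with only the compared groups fitted (2.34, adjusted p = 0.072), which called 599 genes. With the replicate number as a block, Serpinb2 was at 2.24 (edgeR adjusted p = 0.0764) and 454 genes were called. Same-numbered libraries correlated between -0.39 and 0.261 in their deviations from group means. Deviations within a group of 2 or 3 libraries must cancel, so these values cannot decide whether the numbers mark a pairing. The block also ended the calls of Il6st (-0.44, adjusted p = 0.0636) and S100a4 (-0.36, adjusted p = 0.0956) against control and of Cd36 in LPS+RCMNs versus LPS (1.03, adjusted p = 0.0629). The F3 call in LPS+RCMNs versus control was lost without LPS+RCMNs replicate 3 (adjusted p = 0.0511). Over the named pathway genes and all alternatives, 695 values kept direction and call, 30 lost a call, 6 gained one and 7 reversed. Of the values for the 6 genes and the counts, 400 kept direction and call, or stayed within the replicate spread or within 1.5 times the count. Of the rest, 35 moved beyond these limits, 11 lost a call, 5 gained one and 5 reversed. Depth limits Serpinb2 in control and Thbs1 in LPS most, and the LPS group has 2 libraries.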

Other observations

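The wider Serpinb family was looked at after its values were seen. The table holds 18 Serpinb genes, 7 on chromosome 1, where Serpinb2 lies, and 11 on chromosome 13, and 11 were tested. The genes named here are examples, and others were called too, in both directions. Among these, Serpinb1b was higher in LPS+RCMNs than in control (1.00, edgeR adjusted p = 0.0319). Serpinb1c was lower in LPS than in control (-1.18, edgeR adjusted p = 0.043). Serpinb10, on chromosome 1, averaged 9.61 ± 2.56 CPM in LPS+RCMNs (SD, n = 3), 8.36 ± 0.0886 CPM in LPS (SD, n = 2) and 10.6 ± 2.15 CPM in control (SD, n = 3), and was not called in LPS versus control (-0.34 ± 0.25, edgeR adjusted p = 0.26). Serpinb9b, on chromosome 13, averaged 2.89 ± 0.842 CPM in LPS+RCMNs (SD, n = 3), 1.6 ± 0.299 CPM in LPS (SD, n = 2) and 0.46 ± 0.222 CPM in control (SD, n = 3), and rose in LPS+RCMNs versus control (2.65 ± 0.41, edgeR adjusted p = 0.00582). Serpinb6a, an intracellular serpin gene of higher level, averaged 251 ± 22.7 CPM in LPS+RCMNs, 429 ± 5.07 CPM in LPS and 219 ± 5.05 CPM in control, and rose in LPS versus control (0.97 ± 0.10, edgeR adjusted p = 2.74e-05). With the length trend removed the Serpinb6a value was 0.36. Serpinb genes on chromosome 13 include near-identical copies, so reads may be split between them.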
